A study of Drosophila melanogaster with 8 samples.

Results

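The 72 genes described here encode proteins of the mitochondrial ribosome, and their transcripts were measured in RNA that came down with cytosolic ribosomes of the fruit fly testis. They are all genes of the deposited table whose name starts with mRpL, for the large mitoribosomal subunit (46 genes), or mRpS, for the small subunit (26 genes), out of 12051 genes listed. Membership goes by gene name and not by a measured value. Ribosomes were precipitated from testis lysates of wild-type Drosophila melanogaster (genotype WT, 2 to 7 days old, raised on corn-meal food) with antibodies against eRpL22-like or against eRpL22, a pair of paralogous proteins of the cytosolic large subunit. The groups are the eRpL22-like pulldown, with 4 libraries, and the eRpL22 pulldown, with values for 3 of its 4 libraries, since eRpL22 replicate 4 was not analysed here. The comparison addresses whether ribosomes with one paralogue or the other were associated with different messages. All libraries come from whole testis, so the cell type that carried a transcript is not known. Neither input RNA nor a mock precipitate is listed in the labels, so RNA held by ribosomes and RNA that both antibodies brought down by other routes cannot be told apart.

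The mitochondrial ribosome translates the few messages of mitochondrial DNA, which code for core subunits of the respiratory chain and the ATP synthase. Its ribosomal RNAs are made in the mitochondrion, but its proteins are encoded in the nucleus, translated on cytosolic ribosomes and imported. In the male germline of flies, mitochondria of each spermatid fuse into the Nebenkern and then elongate along the growing sperm tail.

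The reads recovered from the table numbered 15971685 to 26346787 per library over all listed genes. Values are the authors' normalized reads, that is, read counts divided by a factor of each library. One count corresponded to 0.747 to 1.495 normalized reads, and 0 counts allowed up to 2.24 to 4.49, depending on the library (3 counts, counting error only). Values are not divided by transcript length, so levels are compared between libraries and not between genes. Spermatid markers (Mst87F, dj, ProtA, ProtB and S-Lap1) took 1.75% to 1.92% of the reads of the eRpL22-like libraries and 1.89% to 2.14% of those of the eRpL22 libraries. Limma called 0 of these 5 but gave 3 an unadjusted p under 0.05, all lower with eRpL22-like (background 2.1%). They were Mst87F, dj and S-Lap1, with log2 fold changes of -0.32, -0.32 and -0.20, and dj did not overlap between the pulldowns. The 4 early germline genes took 0.00232% to 0.0134% with eRpL22-like and 0.00147% to 0.0106% with eRpL22. Each of these genes was at 3 counts or fewer in some library: nos ranged over 0 to 1.53 normalized reads with eRpL22-like and 0 to 80.7 with eRpL22, bam over 0 to 185 with eRpL22-like and 1.02 to 451 with eRpL22, and vas over 0.934 to 1349 with eRpL22-like and 23.9 to 1772 with eRpL22. The fourth, aub, had 1040.0, 269, 1456 and 2517 in the eRpL22-like libraries and 362, 3.06 and 2.38 in the eRpL22 libraries, with a log2 fold change of 5.88 (SE 1.82) and an adjusted limma p of 0.945. For 5 spermatocyte genes the shares were 0.0116% to 0.0333% with eRpL22-like and 0.00526% to 0.0179% with eRpL22, and 3 had a positive log2 fold change and 2 a negative one. Of these, can had 1108, 1823, 534 and 46.7 in the eRpL22-like libraries and 53.8, 111 and 26.2 in the eRpL22 libraries, with overlap. Its log2 fold change was 3.11 (SE 1.70). DESeq2 on the recovered counts called can (adjusted p = 0.0435), and limma did not (adjusted p = 0.945). Markers of other tissues were below the spermatid share, at 0.125% to 0.212% with eRpL22-like and 0.120% to 0.204% with eRpL22 for 5 accessory gland genes, and 0.0122% to 0.105% with eRpL22-like and 0.0118% to 0.0259% with eRpL22 for 5 muscle genes. The highest muscle share was that of eRpL22-like replicate 4. The part of these tissues in the values of the mitoribosomal genes was not tested. In tissue of mixed cells, fewer cells of a type and less RNA per cell cannot be told apart.

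No mitoribosomal transcript passed the test between the pulldowns. Fold changes are given as log2 of eRpL22-like over eRpL22, from limma on log2(normalized reads + 1). A gene was called at an adjusted p under 0.05 over the 11174 genes whose mean reached 10 normalized reads. Of the 72 genes, 71 entered the test, and mRpL44, at 0, 0, 14.02 and 0 normalized reads in the eRpL22-like libraries and 0, 0 and 15.9 in the eRpL22 libraries, was too low. Limma called 0 of the 71 (smallest adjusted p = 0.945), against a background of 0% over all genes tested, and the adjusted p of each gene given library by library below was at or above that value. It gave 4 of them an unadjusted p under 0.05: mRpL23, mRpS18B and mRpS25 with higher values in the eRpL22-like pulldown and mRpL12 with lower ones. The background for an unadjusted p under 0.05 was 4.11% over all genes tested, 2% higher and 2.1% lower, so these 4 of 71 stand near it. edgeR on the recovered counts called 0 members of 71, with 1 (mRpS30, lower with eRpL22-like) at an unadjusted p under 0.05, where the background was 3.96% in either direction, 2.44% higher and 1.52% lower. DESeq2 on the same counts also called 0 of the 70 members to which it gave an adjusted p (background 1.98%). It gave 7 an unadjusted p under 0.05 (background 9.78%), of which mRpL14, mRpL20, mRpL23, mRpL24, mRpL35 and mRpL39 were higher with eRpL22-like (background 6.2%) and mRpS30 was lower (background 3.58%).

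Large-subunit and small-subunit genes were placed differently around zero. Of 45 mRpL genes tested, 30 had a positive log2 fold change and 15 a negative one, with a median of 0.64. Of 26 mRpS genes, 12 were positive and 14 negative, with a median of -0.02. The background over all genes tested was 48.8% positive and a median of -0.03. For all 71 together, 42 were positive and the median was 0.38, which was 0.16 without eRpL22 replicate 1, 0.20 without eRpL22 replicate 3 and 0.75 without eRpL22-like replicate 3. The mRpL median was 0.34 without eRpL22-like replicate 1, 0.37 without eRpL22-like replicate 4 or eRpL22 replicate 1, and 0.30 without eRpL22 replicate 3, and the mRpS median was 0.12 without eRpL22-like replicate 1 and 0.04 without eRpL22 replicate 2. The difference between the subunits was not tested. Log2 fold changes of at least 1 were found for 25 of the 71 (background 25.1%) and of -1 or less for 10 (background 24.5%). The 95% intervals were wide: the median half-width was 7.20-fold for the 71 genes, against 14.2-fold for all genes tested. At means of 1000 to under 5000 normalized reads it was 3.34-fold for members and 2.57-fold for all genes. Of the 71, 0 had an interval that lay within 2-fold either way (background 5.31%, all from genes with a mean of at least 1000). At means of 1000 to under 5000, 83 of 2713 genes had such an interval. For 14 of the 71 the sign of the log2 fold change differed from that of the log of the ratio of arithmetic means.

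**Figure D1:**
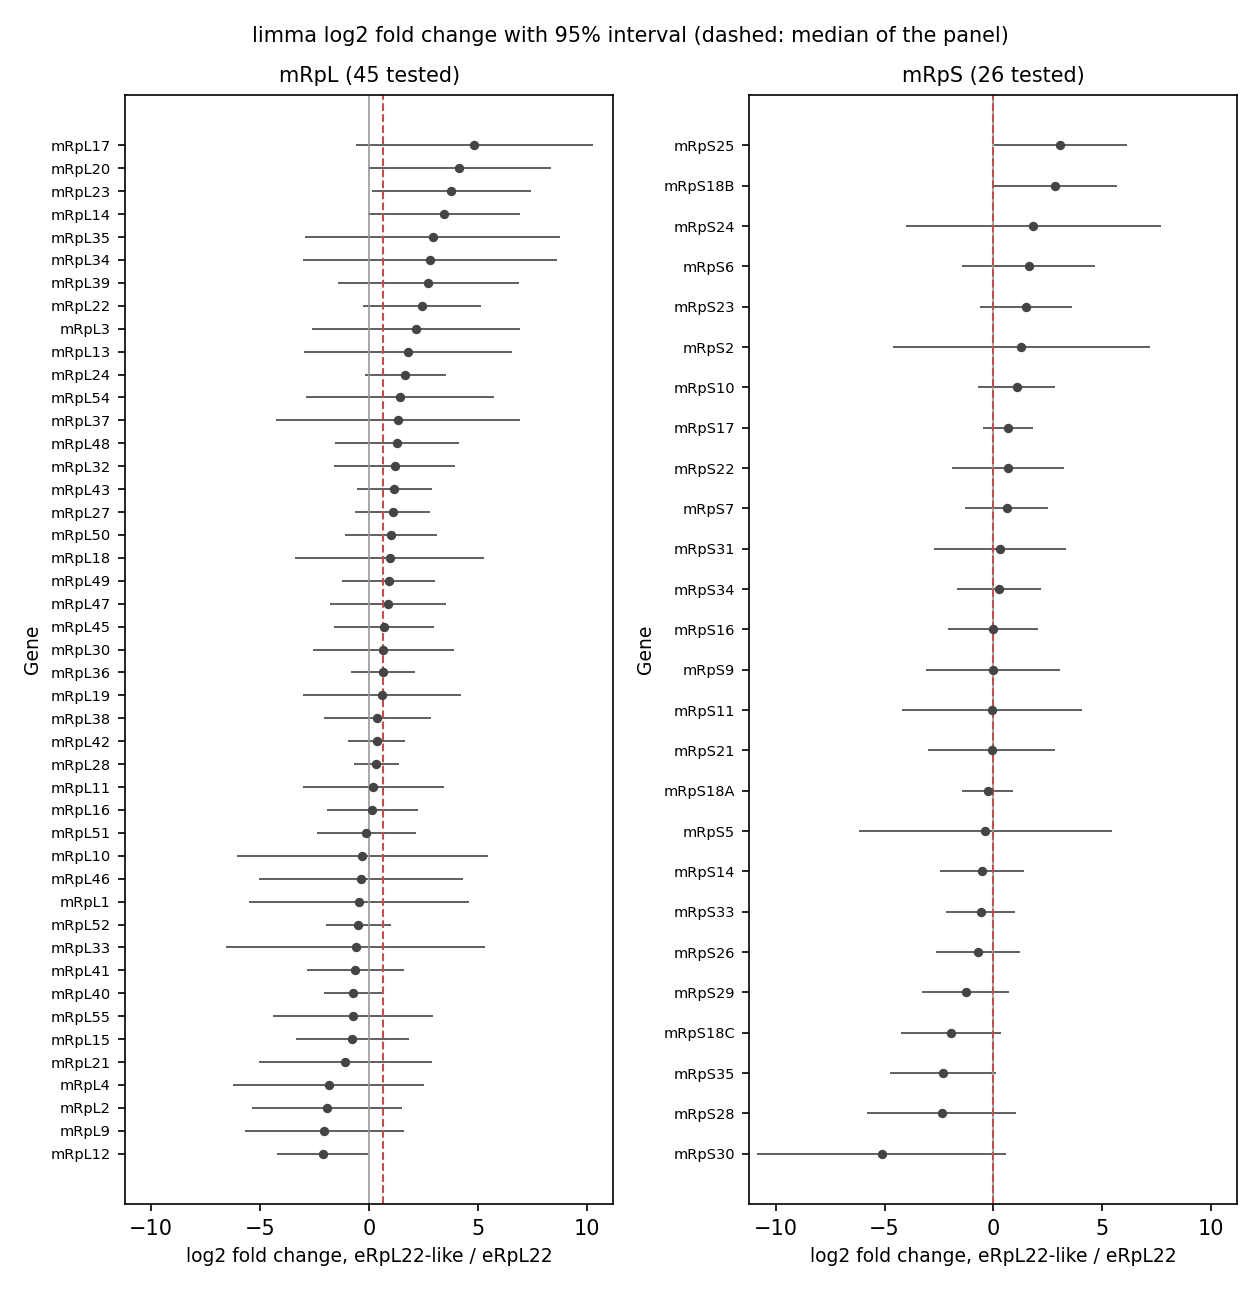
Log2 fold change (eRpL22-like over eRpL22, x axis) of each tested mRpL gene (left) and mRpS gene (right), ordered by value, with its 95% interval from limma; the dashed line is the median of each panel, 0.64 for mRpL and -0.02 for mRpS. Of 71 intervals, the 4 that do not cross 0 are those of mRpL23, mRpL12, mRpS18B and mRpS25.

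As a share of all reads, mitoribosomal transcripts were a small part of each library, and the large-subunit genes took more in the eRpL22-like pulldown. The 46 mRpL genes together took 0.221%, 0.164%, 0.162% and 0.211% of the reads of eRpL22-like replicates 1 to 4, against 0.137%, 0.127% and 0.142% in eRpL22 replicates 1 to 3. All 4 eRpL22-like libraries lay above all 3 eRpL22 libraries. The 26 mRpS genes took 0.116%, 0.112%, 0.1398% and 0.1103% with eRpL22-like and 0.105%, 0.0926% and 0.123% with eRpL22, and these values overlapped. The mean share for mRpL was 0.1898% ± 0.0310 (SD, n = 4) with eRpL22-like and 0.136% ± 0.00791 (SD, n = 3) with eRpL22, and for mRpS 0.1195% ± 0.0137 (SD, n = 4) with eRpL22-like and 0.107% ± 0.0151 (SD, n = 3) with eRpL22. The summed mRpL level divided by the summed mRpS level was 1.92, 1.46, 1.16 and 1.92 in the eRpL22-like libraries and 1.31, 1.37 and 1.16 in the eRpL22 libraries, with overlap.

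The separation of the mRpL share depended on what the values were divided by. On the scale of the authors' normalized reads, the 46 genes summed to 50743, 29829, 34078 and 39822 in the eRpL22-like libraries and 32799, 25574 and 29761 in the eRpL22 libraries, and eRpL22 replicate 1 lay above eRpL22-like replicate 2. With transcripts of mitochondrial DNA left out of the totals, the mRpL share was 0.251%, 0.179%, 0.174% and 0.234% with eRpL22-like and 0.166%, 0.1403% and 0.155% with eRpL22, without overlap. Those transcripts took 6.75% to 11.6% of the reads with eRpL22-like and 8.21% to 17.04% with eRpL22. Most of this was the large mitochondrial ribosomal RNA, mt:lrRNA, and not messages. It held 2.59e+06 of the set's 2.66e+06 normalized reads in eRpL22-like replicate 1 and 3.94e+06 of 4.07e+06 in eRpL22 replicate 1. Without mRpL28, the member that collected the most reads, the mRpL share was 0.172%, 0.156%, 0.1405% and 0.191% with eRpL22-like and 0.127%, 0.104% and 0.128% with eRpL22. No p is given for these sums, since the members were picked as a group with earlier results known.

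**Figure D2:**
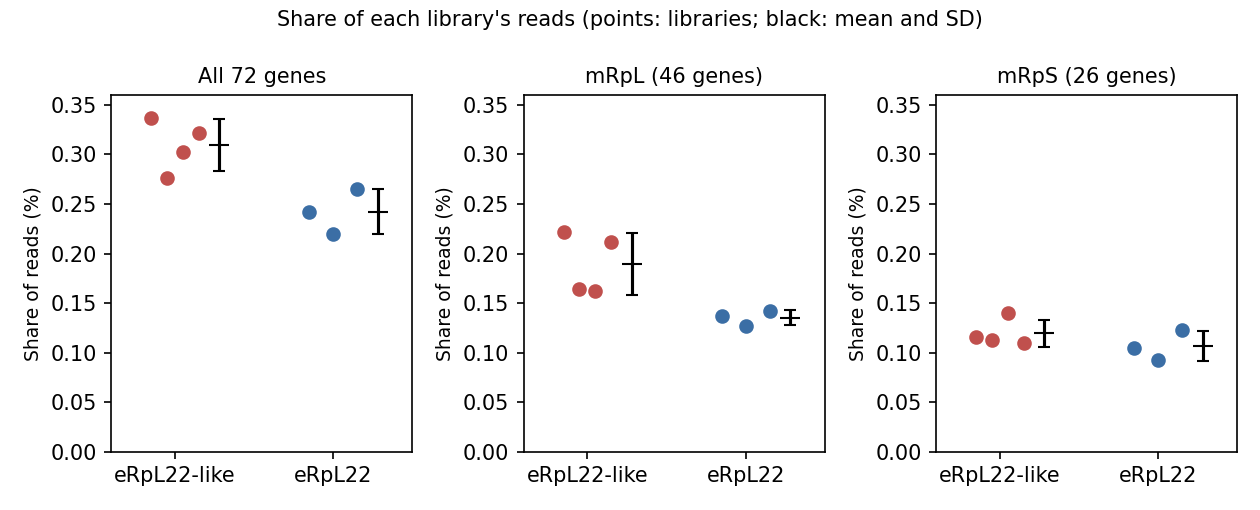
Share of each library's reads (%, y axis from 0) taken by all 72 genes, the 46 mRpL genes and the 26 mRpS genes; points are libraries, red for eRpL22-like and blue for eRpL22, and black marks are the mean and SD. The shares do not overlap between pulldowns for all 72 genes or for mRpL, and overlap for mRpS. On the scale of the authors' normalized reads, the sums overlapped for all 72 genes and for mRpL. For all 72 genes, eRpL22-like replicate 2 was at 50308 and eRpL22 replicate 1 at 57874.

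The list of proteins at the rim of the polypeptide exit tunnel holds mRpL17, mRpL22, mRpL23 and mRpL24, counterparts of bacterial proteins around the tunnel mouth, and mRpL45, which in mammals helps anchor the mitoribosome at the inner membrane. In limma all 5 had a positive log2 fold change, with a median of 2.43, and 0 were called (1, mRpL23, at an unadjusted p under 0.05). That median is the value of mRpL22, which was 0.24 in edgeR. The list was drawn up with earlier results known. Together the 5 genes took 0.00991% to 0.0271% of the reads with eRpL22-like and 0.00326% to 0.0222% with eRpL22, with overlap. The positive direction depended on the scale for mRpL45, whose log2 fold change was 0.69 in limma but -0.24 in edgeR and -0.26 in the authors' deposited table, with a ratio of means of 0.837. mRpL47, the counterpart of another bacterial protein near the tunnel and not on the list, was at 0.85 in limma and -0.12 in edgeR. mRpL24 (FBgn0031651) had 846, 724, 1695 and 1648 normalized reads in eRpL22-like replicates 1 to 4, against 253, 417 and 454 in eRpL22 replicates 1 to 3. Its 4 eRpL22-like libraries all lay above its 3 eRpL22 libraries, which was the case for 2 of the 71 genes (background 2.38%); the reverse was the case for 0 (background 2.76%). The mean was 1228 ± 515 normalized reads (SD, n = 4) with eRpL22-like and 374 ± 107 (SD, n = 3) with eRpL22, a ratio of 3.28, and the log2 fold change was 1.65 (SE 0.92). The gene overlaps synr in the annotation, and the use of strand in counting is not given, so reads of the pair may not be told apart. mRpL24 also had the smallest p among the members in the authors' deposited table, at 0.00531 with an adjusted p of 0.403 and a log2 fold change of 1.71, so the authors did not call it either.

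mRpL23 (FBgn0035335) had 130.2, 612, 959.6 and 967 normalized reads in eRpL22-like replicates 1 to 4, against 199, 2.04 and 92.8 in eRpL22 replicates 1 to 3. The lowest eRpL22-like library lay below the highest eRpL22 library, and eRpL22 replicate 2 was at the floor of counting. Its log2 fold change was 3.76 (SE 1.80), with the smallest unadjusted p among the members, and was 1.93 without eRpL22 replicate 2. mRpL22 (FBgn0030786) had 289, 1370.3, 1802 and 1395 normalized reads in eRpL22-like replicates 1 to 4 and 2886, 227 and 8.72 in eRpL22 replicates 1 to 3, so the highest and the lowest library both came from the eRpL22 pulldown. Its log2 fold change was 2.43 (SE 1.33), whereas the ratio of means was 1.17. Without eRpL22 replicate 3 the value was 0.30, and without eRpL22 replicate 1 it was 4.41. mRpL17 ranged over 51.4 to 347 in the eRpL22-like libraries and 0 to 62.8 in the eRpL22 libraries, and mRpL45 over 438 to 826 in the eRpL22-like libraries and 125 to 1889.8 in the eRpL22 libraries. The log2 fold change of mRpL17 was 4.83 (SE 2.67), the largest positive one of the 71 genes in limma, on eRpL22 replicates 2 and 3 at 0 and 2 counts. In edgeR it was 3.17, and the largest there was that of mRpL35, 4.40.

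Proteins that surround the peptidyl transferase centre, where the peptide bond is made, differed in direction. Of mRpL2, mRpL3, mRpL4, mRpL16 and mRpL27, 3 were positive and 2 negative, with a median of 0.14. mRpL2 (FBgn0036135) had 4029.7, 797, 0 and 527 normalized reads in eRpL22-like replicates 1 to 4, against 777, 296 and 2029 in eRpL22 replicates 1 to 3. The highest and the lowest library of this gene both came from the eRpL22-like pulldown, and its log2 fold change of -1.94 (SE 1.70) stood beside a ratio of means of 1.29 and was 0.62 without eRpL22-like replicate 3. mRpL27 was at 2695, 992, 1301 and 578 in the eRpL22-like libraries and 532, 455 and 715 in the eRpL22 libraries, and eRpL22 replicate 3 lay above eRpL22-like replicate 4. mRpL3 and mRpL4 were listed at 1 count in eRpL22-like replicate 3 and reached 2114 and 589 normalized reads in another library of that pulldown.

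The stalk of the large subunit recruits translation factors, and 1 of its 3 genes listed here was positive and 2 were negative, with a median of -0.30. mRpL12 (FBgn0011787), the stalk protein itself, had 33.7, 2623, 339 and 1560.4 normalized reads in eRpL22-like replicates 1 to 4, against 1523, 1432 and 3952 in eRpL22 replicates 1 to 3. Its log2 fold change of -2.13 (SE 1.03) was the lowest of the mRpL genes in limma and was -0.88 without eRpL22-like replicate 1. The pulldowns overlapped, with eRpL22-like replicates 2 and 4 above eRpL22 replicates 1 and 2. mRpL10 and mRpL11, counterparts of bacterial proteins at the base of the stalk, had log2 fold changes of -0.30 and 0.19. mRpL10 was listed at 0 in eRpL22-like replicate 3 and in eRpL22 replicate 1.

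Among the other large-subunit proteins with a bacterial counterpart, mRpL20 and mRpL28 are given in full. mRpL20 (FBgn0036335), a protein bound early in assembly of the bacterial large subunit, had 140.2, 268, 841 and 655 normalized reads in eRpL22-like replicates 1 to 4, against 41.9, 129.5 and 0.793 in eRpL22 replicates 1 to 3. This was the second gene without overlap between pulldowns, with a gap of only 129.5 to 140.2 normalized reads between them, and its log2 fold change was 4.14 (SE 2.07). Without eRpL22 replicate 3, which held 1 count, the value was 2.35. mRpL28 (FBgn0031660) collected the most reads of any member, at 11279, 1476, 4614 and 3831 normalized reads in eRpL22-like replicates 1 to 4, against 2477, 4628 and 3103 in eRpL22 replicates 1 to 3. eRpL22-like replicate 1 was the high library, and the log2 fold change of 0.33 (SE 0.51) was -0.15 without it. mRpL9 had 0, 603, 1482 and 344 in the eRpL22-like libraries and 301, 757 and 722 in the eRpL22 libraries, with a log2 fold change of -2.05 that was 0.30 without eRpL22-like replicate 1, the library at 0. In all, 29 large-subunit genes have a bacterial counterpart by their family number, and 20 of them were positive and 9 negative with a median of 0.64. The 21 of them outside the rule for genes given in full had means of 125 to 1503 normalized reads with eRpL22-like and 11.1 to 1067 with eRpL22, and 15 were positive and 6 negative.

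**Figure D3:**
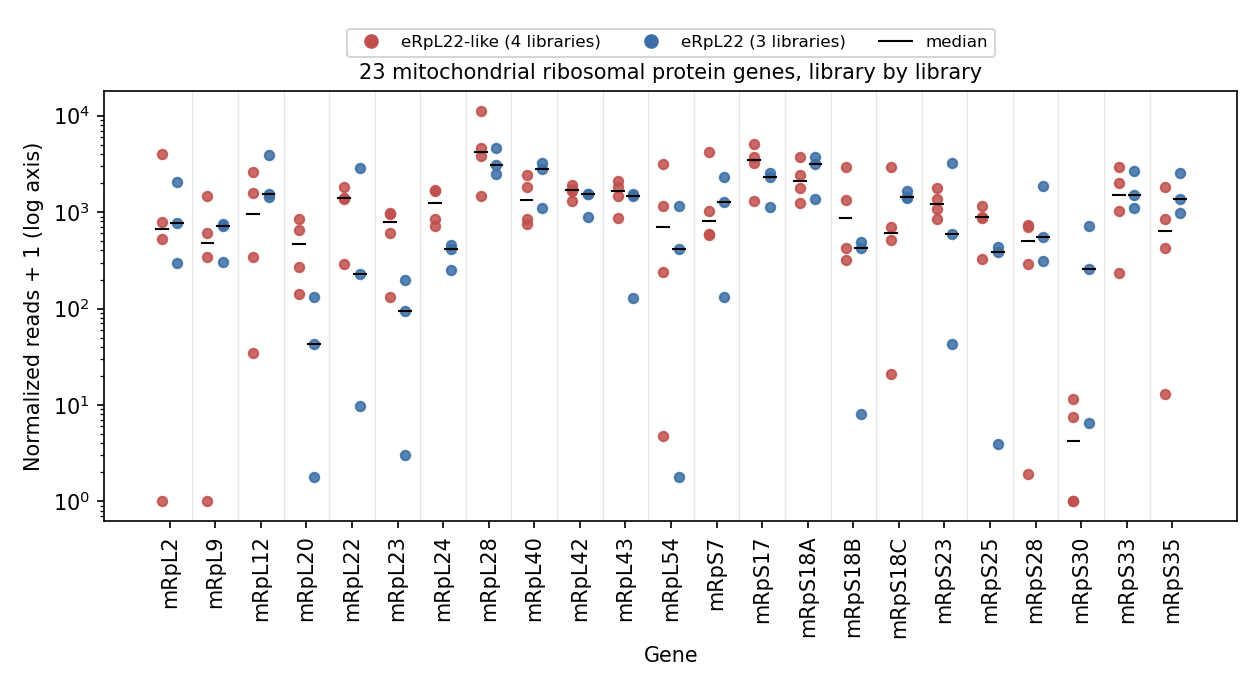
Normalized reads + 1 (log axis) of 23 mitochondrial ribosomal protein genes in each library, red for the 4 eRpL22-like libraries and blue for the 3 eRpL22 libraries, with the median as a black line; libraries at 0 are drawn at 1. Values of the pulldowns overlap for every gene shown except mRpL20 and mRpL24.

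Large-subunit proteins found in mitochondria but not in bacteria lie mostly on the outside of the particle. By number alone, 17 members were counted as such, and single ones may be misplaced. Of these, 10 of 16 tested were positive, with a median of 0.54. mRpL42 (FBgn0033480) was the steadiest of all members, at 1736, 1910.2, 1288 and 1669 normalized reads in eRpL22-like replicates 1 to 4, against 885, 1555 and 1552 in eRpL22 replicates 1 to 3, so that its highest library was 2.16 times its lowest. Its log2 fold change was 0.34 (SE 0.65), with a 95% interval of -0.98 to 1.67, and 0.07 without eRpL22 replicate 1. mRpL43 was at 1834, 1476, 858 and 2090.0 in the eRpL22-like libraries and 1535, 1485 and 128 in the eRpL22 libraries, a log2 fold change of 1.16 (SE 0.85), in which eRpL22 replicate 3 was the low library. Without eRpL22 replicate 3 that value was -0.025. mRpL54 had 3149, 240.4, 3.74 and 1162 in the eRpL22-like libraries and 1144, 418 and 0.793 in the eRpL22 libraries, and each pulldown held 1 library at a few reads or fewer. Its log2 fold change of 1.42 was -1.44 without eRpL22 replicate 3.

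The central protuberance, a part of the large subunit above the tRNA sites, is built in mitochondria partly from mRpL38, mRpL40, mRpL46 and mRpL48. Of these 4, 2 were positive and 2 negative, with a median of 0.00. mRpL40 (FBgn0037892) had 758, 854, 2435 and 1827 normalized reads in eRpL22-like replicates 1 to 4, against 3223, 1089 and 2798 in eRpL22 replicates 1 to 3, with overlap and a log2 fold change of -0.72 (SE 0.66), which was -0.42 without eRpL22 replicate 1. mRpL38 ranged over 184 to 853 in the eRpL22-like libraries and 185 to 475 in the eRpL22 libraries. Of the other large-subunit members counted by number as without a bacterial counterpart, mRpL39 had the largest positive value, 2.72. It had 18.2, 610.1, 2191 and 211 in the eRpL22-like libraries and 68.8, 137 and 6.35 in the eRpL22 libraries. mRpL55, whose loss is lethal in flies, had 1848, 553, 1.87 and 226 in the eRpL22-like libraries and 298, 286 and 229 in the eRpL22 libraries, with a negative log2 fold change of -0.75 beside a ratio of means of 2.43.

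Small-subunit proteins counted by number as having a bacterial counterpart, with mRpS18A left out, were split evenly, 7 positive and 7 negative, with a median of 0.29. mRpS17 (FBgn0034986), which binds the small ribosomal RNA early in assembly in bacteria, collected the most reads of the mRpS genes, at 5102, 3208, 1307 and 3745 normalized reads in eRpL22-like replicates 1 to 4, against 1130.3, 2541 and 2299 in eRpL22 replicates 1 to 3. The log2 fold change was 0.67 (SE 0.56), or 0.31 without eRpL22 replicate 1, and eRpL22-like replicate 3 lay within the range of the eRpL22 libraries. mRpS7 (FBgn0032236), of the head of the small subunit, had 597, 580.2, 4184 and 1014 normalized reads in eRpL22-like replicates 1 to 4, against 130.1, 1281 and 2298 in eRpL22 replicates 1 to 3, with a log2 fold change of 0.60 (SE 0.94) and eRpL22 replicate 1 far below the rest. The value was -0.0432 without eRpL22-like replicate 3 and -0.64 without eRpL22 replicate 1. mRpS21 was among the steadiest members, with 389, 265, 119 and 289 in the eRpL22-like libraries and 378, 293 and 155 in the eRpL22 libraries. mRpS2, mRpS5 and mRpS24 were near the floor in several libraries, and mRpS24 was listed at 0 in 3 of the 7 libraries.

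The family of mRpS18 proteins has 3 members in flies, and their fold changes differed in sign. mRpS18B (FBgn0032849) had 2912, 1326, 318 and 420.1 normalized reads in eRpL22-like replicates 1 to 4, against 490.4, 428 and 7.14 in eRpL22 replicates 1 to 3, a log2 fold change of 2.83 (SE 1.39). mRpS18C (FBgn0039765) had 20.03, 708, 2942 and 512 normalized reads in eRpL22-like replicates 1 to 4, against 1420.3, 1396 and 1658 in eRpL22 replicates 1 to 3, a log2 fold change of -1.94 (SE 1.13). The low library was eRpL22 replicate 3 for mRpS18B, without which its value was 0.89, and eRpL22-like replicate 1 for mRpS18C, without which its value was -0.54. mRpS18A (FBgn0051450) had 2399.6, 1756, 3692 and 1229 normalized reads in eRpL22-like replicates 1 to 4, against 3702, 1376 and 3160.0 in eRpL22 replicates 1 to 3, a log2 fold change of -0.27 (SE 0.57) with a 95% interval of -1.43 to 0.88, and 0.00415 without eRpL22 replicate 1. The differences among these 3 genes were not tested.

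mRpS18A and mRpS30 carry small-subunit names, but structures of the mammalian mitoribosome place their counterparts in the large subunit. mRpS30 (FBgn0030692) had 0, 10.5, 6.54 and 0 normalized reads in eRpL22-like replicates 1 to 4, against 724, 254 and 5.55 in eRpL22 replicates 1 to 3. It was at 10.5 or below in all 4 eRpL22-like libraries and in eRpL22 replicate 3, and clearly higher in eRpL22 replicates 1 and 2. Its log2 fold change of -5.13 (SE 2.82) was the lowest of the 71 genes, and its 95% interval of -10.85 to 0.60 included 0. Leaving out each library in turn, it ranged from -7.14 to -3.74. In the authors' deposited table it had a log2 fold change of -6.27 with p = 0.0282 and an adjusted p of 0.79. Counting both genes with the large subunit changed the medians to 0.62 over 47 large-subunit genes and 0.13 over 24 small-subunit genes.

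The small-subunit proteins counted by number as without a bacterial counterpart, with mRpS18A and mRpS30 among them, had a median of -0.43, with 5 of 12 positive. The split was not checked by sequence, and mRpS18A shares its family with mRpS18B and mRpS18C, which were counted on the other side. mRpS25 (FBgn0030572) had 864, 326, 894 and 1158 normalized reads in eRpL22-like replicates 1 to 4, against 2.99, 389 and 433 in eRpL22 replicates 1 to 3, a log2 fold change of 3.07 (SE 1.51), which was 0.84 without eRpL22 replicate 1. mRpS23 had 1381, 1779, 841 and 1065 in the eRpL22-like libraries and 41.9, 587 and 3255 in the eRpL22 libraries, with nearly equal means (ratio 0.978) and a log2 fold change of 1.49 (SE 1.03). Its eRpL22 libraries spanned the whole range of the gene, and without eRpL22 replicate 1 the value was -0.18. mRpS35 (FBgn0035374) had 419, 841, 12.1 and 1829.8 normalized reads in eRpL22-like replicates 1 to 4, against 2536, 986 and 1350.0 in eRpL22 replicates 1 to 3, a log2 fold change of -2.31 (SE 1.20), and 3 of its 4 eRpL22-like libraries lay below all eRpL22 libraries. Without eRpL22-like replicate 3 the value was -0.80. mRpS28 had 740.4, 291, 0.934 and 703 in the eRpL22-like libraries and 1875, 549.6 and 310.1 in the eRpL22 libraries, and mRpS33 had 231, 1982, 2904 and 1029 in the eRpL22-like libraries and 1494, 1093 and 2658 in the eRpL22 libraries. Their log2 fold changes were -2.39 (SE 1.68) for mRpS28 and -0.59 (SE 0.78) for mRpS33. The value of mRpS28 was -0.36 without eRpL22-like replicate 3, at 1 count, and that of mRpS33 was 0.15 without eRpL22-like replicate 1. mRpS29, the counterpart of the mammalian GTP-binding protein DAP3, had 200.3, 767, 808 and 273 in the eRpL22-like libraries and 1993, 599 and 946 in the eRpL22 libraries.

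In the authors' deposited table, 0 of the 72 genes were called, against 0.174% of all genes. An unadjusted p under 0.05 was given to 5 members higher with eRpL22-like, mRpL14, mRpL20, mRpL23, mRpL24 and mRpL39 (background 2.96%), and to 1 lower, mRpS30 (background 2.56%). The 5 higher ones are all large-subunit genes, as are 46 of the 72 members. In limma, the small-subunit genes mRpS18B and mRpS25 were also higher with eRpL22-like at an unadjusted p under 0.05. These values come from the same libraries and are not separate evidence. mRpL14, which was not among the 4 genes under 0.05 in limma, had 644, 82.9, 2128 and 710.2 normalized reads in eRpL22-like replicates 1 to 4, against 86.7, 241 and 4.76 in eRpL22 replicates 1 to 3, with a log2 fold change of 3.43 (SE 1.73).

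Replicate libraries of 1 pulldown differed from each other far beyond counting error. For the 71 genes tested, the median coefficient of variation was 81.0% among the eRpL22-like libraries and 86.8% among the eRpL22 libraries, where counting error alone gives 3.33% with eRpL22-like and 4.36% with eRpL22. Over all genes tested the medians were 92.1% with eRpL22-like and 87.2% with eRpL22, so this spread was shared by the whole series. In 39 of the 71 the highest eRpL22-like library was at least 10 times the lowest (59.5% of all genes tested), and in 39 the same held within eRpL22 (51.2% of all genes tested). Among the 20 members with a mean of 1000 to under 5000 normalized reads, 7 had such a range with eRpL22-like and 5 with eRpL22. That was 35% of them with eRpL22-like and 25% with eRpL22, where among all 2713 genes of that range of means the shares were 15.1% with eRpL22-like and 9.07% with eRpL22. The difference between the members and all genes was not tested.

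Many members were nearly absent from some libraries and well represented in others of the same pulldown. Of the 72 genes, 26 had 3 counts or fewer in at least 1 library, and 13 were listed at 0 somewhere. A library at 3 counts or fewer was found for 35.2% of the members tested and for 47.4% of all genes tested. Both 3 or fewer and over 100 counts within 1 pulldown were found for 32.4% of the members tested and 41.3% of all genes tested. Only 25 had at least 100 normalized reads in every library. The number of members at 3 counts or fewer was 8, 1, 13 and 2 in eRpL22-like replicates 1 to 4 and 5, 9 and 7 in eRpL22 replicates 1 to 3. Of the 71 tested, these made 9.86%, 0%, 18.3% and 1.41% with eRpL22-like and 5.63%, 11.3% and 9.86% with eRpL22. For all genes tested the shares were 28.3%, 12.5%, 29.3% and 15.1% with eRpL22-like and 21.2%, 20.1% and 22.4% with eRpL22, so eRpL22-like replicates 1 and 3 had the most such genes of that pulldown among the members and among all genes. The steadiest members over all 7 libraries, after mRpL42, were mRpS18A, mRpS21, mRpL36 and mRpL40, with highest-to-lowest ratios of 3.01, 3.28, 3.77 and 4.25. mRpL36 had 1162, 1623, 1209 and 2016 in the eRpL22-like libraries and 1727, 939 and 535 in the eRpL22 libraries.

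**Figure D4:**
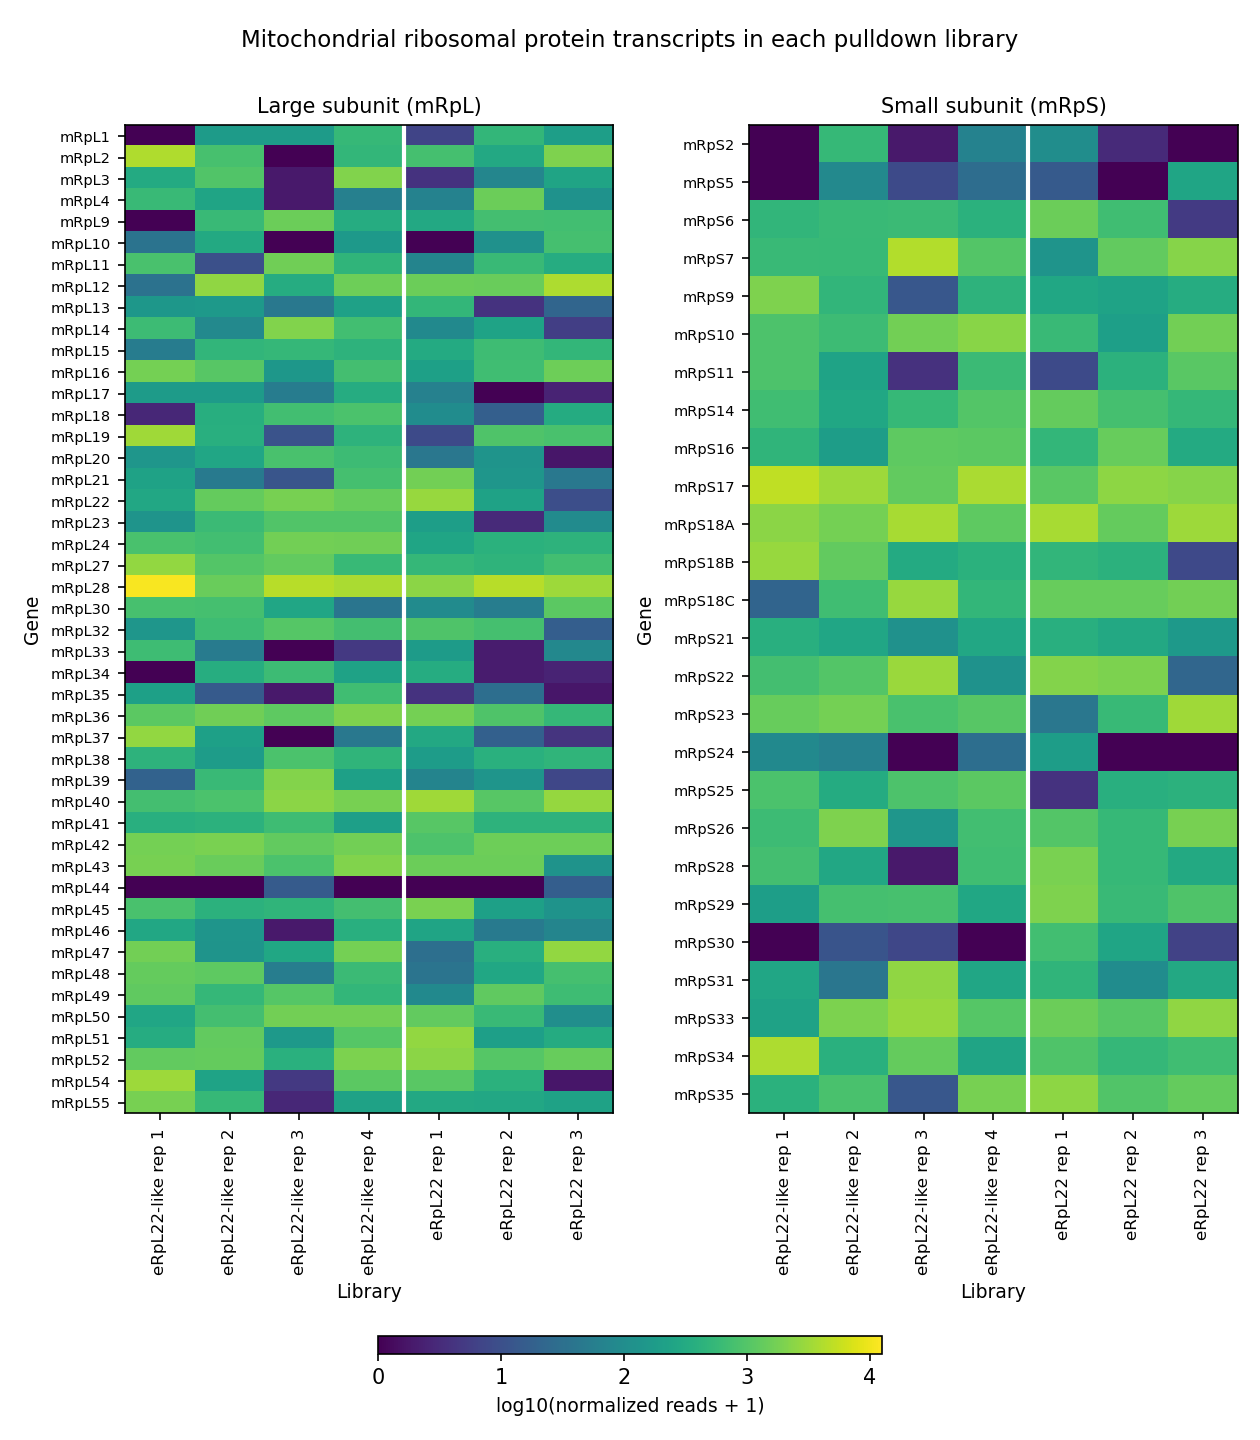
Heat map of log10(normalized reads + 1) for the 46 mRpL genes (left) and the 26 mRpS genes (right), rows, in each library, columns, with the eRpL22-like libraries left of the white line and the eRpL22 libraries right of it. Dark cells mark genes at or near 0, which are scattered over all libraries; eRpL22-like replicate 2 had 1 member at 3 counts or fewer and eRpL22-like replicate 3 had 13.

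**Figure D5:**
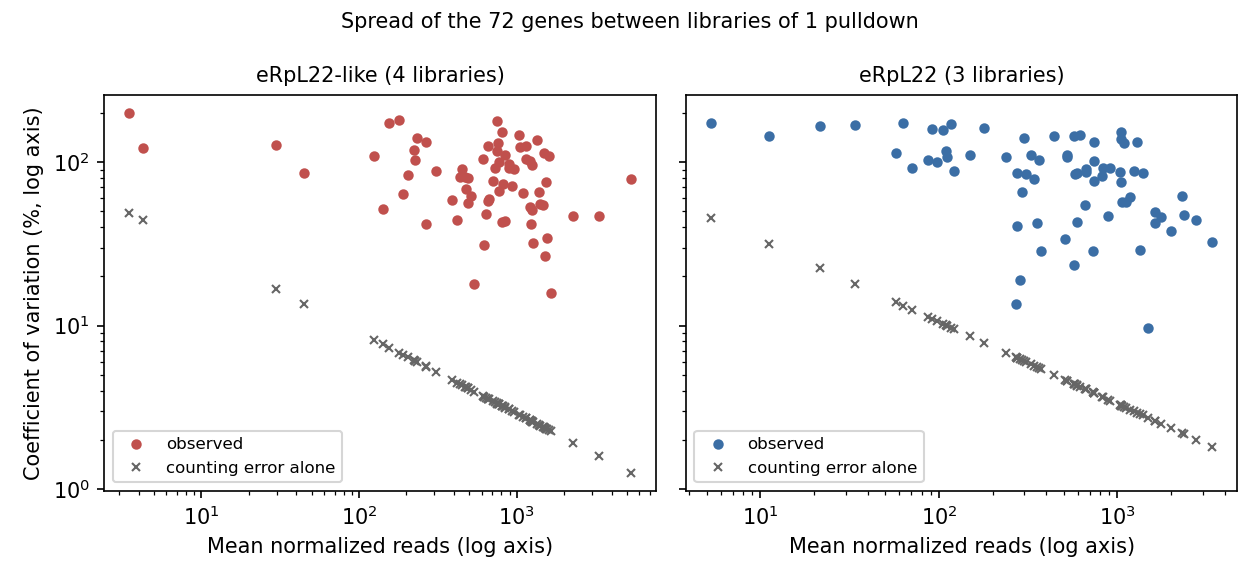
Coefficient of variation between libraries (%, log axis) against mean normalized reads (log axis) of the 72 genes in each pulldown; coloured points are observed and grey crosses are what counting error alone gives. Nearly all genes lie far above the crosses, with medians over the tested members of 81.0% for eRpL22-like and 86.8% for eRpL22. Over all genes tested the medians were 92.1% and 87.2%.

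A pair of mitoribosomal proteins carry other names in flies and are not among the 72. tko, the fly counterpart of mitochondrial S12, whose mutants are bang-sensitive, had 514, 461, 486 and 52.04 in the eRpL22-like libraries and 468, 506 and 512 in the eRpL22 libraries. bonsai, a counterpart of mitochondrial S15, had 0, 27.6, 451 and 112 in the eRpL22-like libraries and 1.495, 48.9 and 1392 in the eRpL22 libraries. Their log2 fold changes were -0.82 and -0.68, and neither was called.

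Genes that act with the mitoribosome gave 0 limma calls. TrpRS-m, mtRNApol, mt:srRNA and mt:lrRNA had an unadjusted p under 0.05, among 9 translation factors, 13 synthetases, 9 genes of transcription and RNA handling and 19 transcripts of mitochondrial DNA tested (background 4.11%). Of 9 mitochondrial translation factors tested, 3 were positive and 6 negative, with a median of -0.25, and mEFTs, the nucleotide exchange factor for mitochondrial EF-Tu, had 10139, 10594, 11644 and 13894 in the eRpL22-like libraries and 11419, 11699 and 14380.2 in the eRpL22 libraries, a steady gene across both pulldowns. Of 13 mitochondrial aminoacyl-tRNA synthetases, 7 were positive and 6 negative, with a median of 0.01. TrpRS-m, the mitochondrial tryptophanyl-tRNA synthetase, had 12757, 12892, 17024 and 11470.1 in the eRpL22-like libraries and 8129, 8745 and 9068 in the eRpL22 libraries, without overlap and with a log2 fold change of 0.63 (SE 0.27) and an adjusted limma p of 0.945. Of 9 genes of mitochondrial transcription and RNA handling, 5 were positive and 4 negative, with a median of 0.25. Among them mtRNApol, the mitochondrial RNA polymerase, had 1.82, 2.24, 0.934 and 41.3 normalized reads in eRpL22-like replicates 1 to 4, against 263, 251 and 1009.7 in eRpL22 replicates 1 to 3. All its eRpL22-like libraries lay below all its eRpL22 libraries, and the log2 fold change was -6.28 (SE 2.68). DESeq2 on the recovered counts called mtRNApol (adjusted p = 0.0266), and limma did not (adjusted p = 0.945). TrpRS-m and mtRNApol are given here because their values were seen not to overlap (background 2.38% higher and 2.76% lower).

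Transcripts of mitochondrial DNA, which include the RNAs of the mitoribosome and the messages it translates, were 10 positive and 9 negative among 19 tested, with a median of 0.06. The small ribosomal RNA mt:srRNA had 3042, 3064, 3119.9 and 1408 in the eRpL22-like libraries and 13391, 3968 and 4623 in the eRpL22 libraries, a log2 fold change of -1.31 (SE 0.48). Its eRpL22-like values all lay below its eRpL22 values, and the library highest for it, eRpL22 replicate 1, was also the one with the largest share of mitochondrial DNA transcripts. The message mt:ATPase8 was separated the other way, at 34.6, 25.4, 275 and 62.8 in the eRpL22-like libraries and 10.5, 4.08 and 17.4 in the eRpL22 libraries, with a log2 fold change of 2.64 (SE 2.70). The large ribosomal RNA mt:lrRNA had 2.59e+06, 1.51e+06, 1.33e+06 and 1.79e+06 in the eRpL22-like libraries and 3.94e+06, 1.87e+06 and 1.66e+06 in the eRpL22 libraries, with overlap. Its log2 fold change was -0.40 (SE 0.16), and it was called under the replicate block alone. DESeq2 gave it an adjusted p of 0.778. How RNAs made inside mitochondria came into the pulldowns was not tested.

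Genes of the cytosolic ribosome had mostly negative log2 fold changes. Of 84 cytosolic ribosomal protein genes, chosen by the names RpL, RpS or RpLP with a number and the gene sta, 18 were positive and 66 negative, with a median of -0.26. Their share of reads was 2.89%, 2.08%, 2.44% and 1.77% in the eRpL22-like libraries and 3.42%, 2.20% and 1.89% in the eRpL22 libraries, with overlap. The difference between the cytosolic and mitochondrial sets was not tested.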

How the data were processed

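RNA from eRpL22-like and eRpL22 immunoprecipitates was sequenced as 50-base single reads after Kapa Hyper library preparation, per the labels' protocols. Trimming with Trim Galore and cutadapt, STAR and DESeq2 appear, without versions, in the submitters' processing notes. The genome build, the annotation, the read counter and its use of strand were not given in the sources used here. The deposited table gives a normalized signal per gene and library, and the authors' log2 fold change, Wald statistic (a score) and p-value with its adjusted p-value, per the file headers. Dividing each library's deposited signal by its step, what 1 read is worth there, gave whole reads for 100% of values (relative tolerance 1e-06), and these are the recovered reads. Columns were matched to samples by name.

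The test was limma (version 3.58.1, R 4.3.3) on log2(normalized reads + 1), with a mean-variance trend and no covariates, over the 11174 genes whose mean reached 10, two-sided, with Benjamini-Hochberg adjustment and a threshold of 0.05. edgeR (4.0.16) and DESeq2 (1.42.0) were run on recovered reads as alternatives, beside other pseudocounts, filters, scalings, a replicate block and leaving out each library. Python 3.11.15, pandas 2.3.3 and matplotlib 3.10.9 made summaries and figures. The labels do not say whether replicates are separate collections of flies. The p-values therefore speak of the spread among these libraries only, part or all of which may be technical.

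The members and lists were chosen with earlier results of these data known. Lists of sites in the ribosome and of related genes came from general knowledge; of 11 translation factors, 16 synthetases and 12 transcription and RNA genes listed, 9, 14 and 9 were found. Of the 72 identifiers, 70 were found among current names. Members counted as without a bacterial counterpart are those numbered above 36 (mRpL, except mRpL47) or above 21 (mRpS, except mRpS24), and mRpS18A. This split goes by number and was not checked by sequence, so single members may be misplaced. mRpS18A was set there for its place in the large subunit, although mRpS18B and mRpS18C of its family were counted with the bacterial counterparts. Genes given library by library by rule are 23: those with an unadjusted limma p under 0.05, those with no overlap and a mean of at least 100 in the higher pulldown, the 4 highest means of each subunit, the 3 largest fold changes per direction among means of at least 1000, up to 4 genes with both 3 or fewer and over 100 reads in 1 pulldown, and mRpS18A, mRpS18B, mRpS18C and mRpS30; others named by library were added after their values were seen. In a Release 6 annotation, 42 of the 72 overlap another gene (mRpL24 and synr, mRpL23 and CG8993, for example), whose reads may not be told apart. No sequences are shown.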

Additional observations from a re-analysis of the deposited data

Results flagged for a closer look

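mRpS7 had 4184 normalized reads in eRpL22-like replicate 3, against 580.2 to 1014 in the other eRpL22-like libraries. The gap took 0.880 of the range of the 4 libraries, above a limit for 4 samples. That limit is meant to be passed by about 1 in 20 groups by chance. In these data 25.6% of all genes tested passed it, so that rate does not hold here. A gap above the limit therefore does not set mRpS7 apart. Among the 27 sets of eRpL22-like values chosen for this check, mRpS7 was the 1 above the limit. Of all 72 genes, 7 had such a gap, so other members with one were not among the chosen sets. The log2 fold change of mRpS7, 0.60 over all libraries, was -0.04 without eRpL22-like replicate 3.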

How the results depend on the processing

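No mitoribosomal gene was called under any alternative run: pseudocounts of 0.5 and 10, no filter, a mean of at least 100, library totals, TMM, quantile scaling, edgeR, DESeq2, a replicate block, or leaving out each library. Over all genes limma called 0 in every fit that left out a library, 1 with quantile scaling (CG9920) and 1 with the replicate block (mt:lrRNA), while DESeq2 called 172. In the other mitochondrial translation lists, DESeq2 called 1 (mtRNApol), the replicate block 1 (mt:lrRNA) and the fits without 1 library 0. Deviations of same-numbered libraries correlated at 0.0071, 0.0195 and 0.00995, and those of libraries with different numbers at -0.0232 to 0.0213. Whether same-numbered libraries share a source is not given in the labels. These correlations cannot decide it, since a shared source could be hidden by the wide spread between libraries. With the same 3 numbers in both pulldowns the block cannot move a fold change, so the members' median of 0.35 on those libraries is the same with and without it by construction.

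Leaving out each library in turn, the members' median log2 fold change of 0.38 ranged from 0.16 (without eRpL22 replicate 1) to 0.75 (without eRpL22-like replicate 3), with 39 to 47 of 71 positive. The mRpL median ranged from 0.30 to 0.85 and stayed positive under all alternatives. The mRpS median ranged from -0.14 to 0.12 and changed sign with library totals (0.08), a pseudocount of 10 (0.08) and quantile scaling (0.00). Library totals moved the median of all genes to 0.07. The difference of mean shares, eRpL22-like minus eRpL22, was 0.0436 to 0.0633 percentage points for mRpL without 1 library, 0.0555 to 0.0783 for all members and 0.00566 to 0.0207 for mRpS.

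Of the 71 members, 14 had the opposite sign in edgeR, and 14 in DESeq2, to that in limma. Among the 23 genes given library by library by rule, mRpL2 was at 0.36 in edgeR and 0.37 in DESeq2, mRpL9 at 0.0248 and 0.0341 and mRpS23 at -0.0474 and -0.0321, edgeR first. Without 1 library the log2 fold changes ranged from -3.37 to 0.62 for mRpL2, -3.21 to 0.30 for mRpL9, -0.15 to 0.83 for mRpL28, -0.0247 to 1.76 for mRpL43, -1.44 to 3.34 for mRpL54, -0.64 to 1.43 for mRpS7, -0.71 to 0.00415 for mRpS18A, -0.18 to 2.94 for mRpS23 and -1.07 to 0.15 for mRpS33. The cause was not tested. With counting error alone the median coefficient of variation would be 3.33% with eRpL22-like and 4.36% with eRpL22.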
